A study of Mus musculus with 2 samples.

Results

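The mitochondrially encoded genes are the 37 genes annotated on chromosome M of the mouse, all with symbols starting mt-, and they were chosen by that location and not by any measured value. All 37 were found in both gene tables, among 43346 mouse genes, and they comprise 13 mRNAs, 2 rRNAs and 22 tRNAs. The samples were lung tissue of B6NCrl mouse embryos at embryonic day 14.5, sequenced as total RNA in 2 libraries of 1 group, labelled biological replicate 1 and biological replicate 2. No allele, treatment or second condition is named. The labels call each sample both pooled male and female and a single lung of pup 1, and how many animals went into a library is therefore unclear.

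The mitochondrial genome is a small circle that each cell keeps in many copies. Both of its strands are transcribed into long RNAs, and the tRNAs that lie between most of the other genes mark the places where these RNAs are cut into single rRNAs, mRNAs and tRNAs. The mRNAs encode core subunits of the respiratory chain, namely complex I (NADH dehydrogenase), complex III (cytochrome bc1) and complex IV (cytochrome c oxidase), and of ATP synthase, here called complex V. All other subunits come from nuclear genes. Pieces of mitochondrial DNA have also been copied into nuclear chromosomes during evolution, and reads from such a copy and from the mitochondrial gene can be identical.

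Mouse genes held 33167255 of the 34535168 expected counts (the authors' estimates of reads per gene) of replicate 2, and 31940637 of the 33601136 of replicate 1. All 10 lung marker genes were above 1 TPM in both libraries (TPM is the deposited level, scaled for effective length and library), with Sftpc, the surfactant protein C gene, at 2184 TPM in replicate 2, against 2127 TPM in replicate 1. The libraries stood apart in some other tissue and sex markers. The 18 heart muscle genes summed to 143 TPM in replicate 2, against 794 TPM in replicate 1, 14 of the 16 tested were lower in replicate 2 by 2-fold or more at an adjusted p under 0.05, where 1.10% of all genes tested differed by that much in either direction, and Nppb was at 0 counts in both. The summed level of 4 Y-linked genes (Uty, Kdm5d, Eif2s3y, Ddx3y) was 0.05 TPM in replicate 2, against 113 TPM in replicate 1. Xist, the X inactivation RNA, stood at 70.1 TPM in replicate 2, against 0.07 TPM in replicate 1, although both samples are labelled as mixed sex.

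The 37 mitochondrial genes took 1.60% of replicate 2's mouse gene counts (1.59 to 1.60, exact 95% interval), against 1.67% for replicate 1 (1.66 to 1.67), a mean of 1.63 ± 0.0481% (SD, n = 2). The mRNAs carried 74.6% of these counts in replicate 2 and 72.9% in replicate 1, and the rRNAs the remaining 25.4% and 27.1%. Another 0.555% in replicate 2, against 0.573% in replicate 1, lay on 7 nuclear pseudogenes on chromosome 1 that copy mitochondrial mRNAs. With those added, the share was 2.15% in replicate 2 and 2.24% in replicate 1. Intervals here and below cover counting error only, as no use of molecular identifiers is stated.

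The 22 tRNA genes had no measurable value. They are 59 to 75 nt long, and each had an effective length of 0 and a count of 0 in both libraries. In these tables the effective length of a mouse gene with 1 transcript and 100 nt or more is its length minus 99 nt, so no read could be assigned to a shorter gene, and a value of 0 says nothing about the level of these RNAs. The labels also give a size minimum of 200 nt for the RNA. The shortest is mt-Ts2, a serine tRNA at chrM:11613-11671, and the longest is mt-Tl1, a leucine tRNA at chrM:2676-2750, both on the plus strand of GRCm38 (mm10). Their sequences, from the GENCODE M21 transcripts, are shown in full because their whole length is below 100 nt:
mt-Ts2: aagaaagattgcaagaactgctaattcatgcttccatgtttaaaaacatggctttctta
mt-Tl1: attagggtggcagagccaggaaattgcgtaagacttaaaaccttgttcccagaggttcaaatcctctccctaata
The 14 tRNA genes on the plus strand are mt-Tf, mt-Tv, mt-Tl1, mt-Ti, mt-Tm, mt-Tw, mt-Td, mt-Tk, mt-Tg, mt-Tr, mt-Th, mt-Ts2, mt-Tl2 and mt-Tt. The 8 on the minus strand are mt-Tq, mt-Ta, mt-Tn, mt-Tc, mt-Ty, mt-Ts1, mt-Te and mt-Tp.

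Both rRNAs were measured. The RNA of the small mitochondrial ribosome subunit, mt-Rnr1 (chrM:70-1024, plus strand), had 1340.3 TPM in replicate 2, against 1319 TPM in replicate 1. That of the large subunit, mt-Rnr2 (chrM:1094-2675, plus strand), had 3286 TPM in replicate 2, against 3591 TPM in replicate 1. The large subunit RNA was therefore 2.45 times the small one per length in replicate 2 and 2.72 times in replicate 1. The sources used here do not say whether the libraries took up RNA lacking a poly(A) tail.

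The 13 mRNAs differed far more from each other than between libraries. In the deposited TPM the highest was 61.3 times the lowest in replicate 2 and 49.1 times in replicate 1. The ATP synthase genes led: mt-Atp6, which encodes subunit a, the part of the proton channel next to the rotor, had 5699.5 TPM in replicate 2, against 5496 TPM in replicate 1. mt-Atp8, the gene of a small membrane subunit that shares its mRNA with mt-Atp6 and overlaps it by 43 nt, had 4416 TPM in replicate 2, against 4805 TPM in replicate 1. The value of mt-Atp8 depends most on the length correction, because its 204 nt leave an effective length of 105 nt. With the whole length in place of the effective length, a setting chosen after seeing the data, its mean fell to 2656 TPM against 4610.4 TPM, and it took rank 4 instead of rank 2.

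Cytochrome b, encoded by mt-Cytb, is the only mitochondrially encoded subunit of complex III and had 2846 TPM in replicate 2, against 2819.6 TPM in replicate 1. The 3 catalytic core subunits of cytochrome c oxidase were lower in these tables. mt-Co1, the subunit that holds the site where oxygen is reduced, had 2732 TPM in replicate 2, against 2509.8 TPM in replicate 1. mt-Co2, the subunit that takes up electrons from cytochrome c, had 1545 TPM in replicate 2, against 1636 TPM in replicate 1. mt-Co3, a core subunit without metal centres, had 1255 TPM in replicate 2, against 1302 TPM in replicate 1. These 3 genes all have nuclear copies, described further on. How reads were divided is uncertain for mt-Co2 and mt-Co3 and much less so for mt-Co1, though where the reads of its shared part came from was not tested.

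The 7 complex I genes spanned the widest range. mt-Nd1 led with 2603 TPM in replicate 2, against 2595 TPM in replicate 1, followed by mt-Nd4 with 1128 TPM in replicate 2, against 1149 TPM in replicate 1. mt-Nd2 had 605 TPM in replicate 2, against 624 TPM in replicate 1. mt-Nd6, the single mRNA on the minus strand, had 436 TPM in replicate 2, against 472 TPM in replicate 1, so that mt-Cytb, its plus-strand neighbour beyond 1 tRNA gene, stood 6.53 times higher in replicate 2 and 5.98 times in replicate 1. mt-Nd6 overlaps the end of mt-Nd5 by 14 nt on the other strand. The sources used here do not say whether counting used strand, and without it reads of mt-Nd6 cannot be told from antisense reads of the other strand.

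The lowest members were mt-Nd5, mt-Nd3 and mt-Nd4l. mt-Nd5, which encodes a proton-pumping subunit, had 393 TPM in replicate 2, against 412 TPM in replicate 1. mt-Nd3 had 233 TPM in replicate 2, against 244 TPM in replicate 1. mt-Nd4l, which shares its mRNA with mt-Nd4 and overlaps it by 7 nt, had 92.9 TPM in replicate 2, against 112 TPM in replicate 1, far below its partner. In the order of all 13 mRNAs by deposited TPM, mt-Co1 and mt-Nd1 were the only neighbours whose replicate values overlapped. That comparison leaves out how surely reads were divided between genes and nuclear copies, so it does not measure how firm the order is. For mt-Co3 alone the deposited bounds ran from 825 to 6466.5 TPM in replicate 2.

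**Figure D1:**
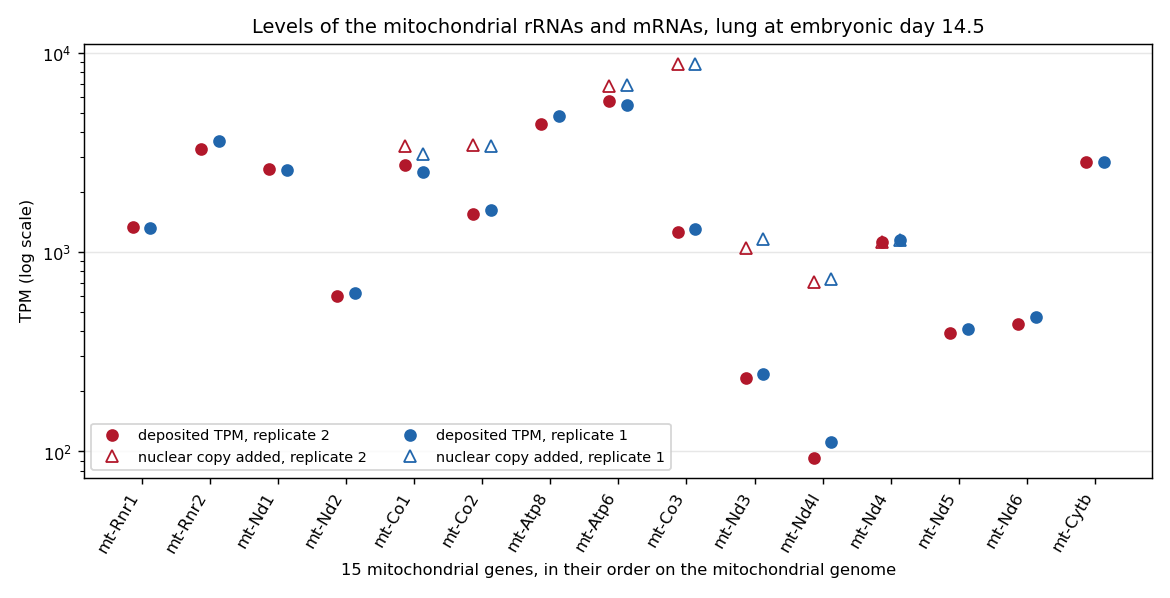
Deposited TPM (log scale) of the 15 mitochondrial genes with an effective length above 0, in genome order, for replicate 2 (red) and replicate 1 (blue), with open triangles for the level when the counts of the chromosome 1 copy are added to its mitochondrial gene. The filled points run from 92.9 TPM for mt-Nd4l to 5699.5 TPM for mt-Atp6 in replicate 2, and the triangles of mt-Co3 lie at 8819.96 TPM in replicate 2, against 8791 TPM in replicate 1.

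Of the 15 measured genes, 7 shared no 100-nt stretch with any other transcript of the annotation, namely mt-Rnr1, mt-Rnr2, mt-Nd1, mt-Atp8, mt-Nd5, mt-Nd6 and mt-Cytb. Their expected counts were whole numbers with a deposited posterior SD of 0, so no read was divided between them and another gene. The sequence ends of 2 mRNAs show a feature of this genome. The lengths of 3 of the 13 mRNAs are not a multiple of 3, because the gene stops inside the stop codon, which the poly(A) tail is known to complete. The last 30 bases of mt-Cytb (chrM:15259-15288) and mt-Nd4 (chrM:11515-11544), both on the plus strand, are given with the single base of the partial stop codon in capitals:
mt-Cytb: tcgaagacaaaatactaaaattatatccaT
mt-Nd4: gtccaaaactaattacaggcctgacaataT
The third is mt-Co3, whose end is shown with its copy.

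The other 8 measured genes shared stretches with 10 nuclear pseudogenes, 7 in a block on chromosome 1 from 24611535 to 24616197 on the minus strand and 3 in a block on chromosome 2 from 22587291 to 22590533. The chromosome 1 copies are, in mitochondrial gene order, Gm29216 (of mt-Co1), Gm28661 (of mt-Co2), Gm10925 (of mt-Atp6), Gm28437 (of mt-Co3), Gm28438 (of mt-Nd3), Gm10222 (of mt-Nd4l) and Gm28439 (of mt-Nd4). No copy of mt-Atp8 was found among the annotated transcripts. Of these 7 pairs, 5 had no mismatch over the whole length of the copy. Gm28437 matched mt-Co3 at all 783 of its bases, and 684 of the 685 stretches of 100 nt in mt-Co3 also occur in Gm28437. For mt-Atp6 it was 579 of 582, for mt-Co2 582 of 585, for mt-Nd4l 195 of 198 and for mt-Nd3 243 of 249. Gm28439 holds the first part of mt-Nd4, with 777 of 1279 stretches, and Gm29216 the last part of mt-Co1, with 380 of 1446.

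The annotated copies differ from their mitochondrial genes mostly at the ends. Where a copy lacks end bases, its annotation stops there, and the chromosome 1 sequence beyond was not examined. The last 80 bases of mt-Co3 (chrM:9311-9390, plus strand) and the same part of Gm28437 (chr1:24613189-24613267, minus strand) differ only in the final base, in capitals, which the annotated copy lacks:
mt-Co3: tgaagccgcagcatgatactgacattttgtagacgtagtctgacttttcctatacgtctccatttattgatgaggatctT
Gm28437: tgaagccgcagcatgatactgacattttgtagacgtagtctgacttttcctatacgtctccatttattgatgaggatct
The annotated copy of mt-Atp6 lacks the stop codon, in capitals, at the end of the gene (mt-Atp6 at chrM:8545-8607, plus strand, and Gm10925 at chr1:24613974-24614033, minus strand):
mt-Atp6: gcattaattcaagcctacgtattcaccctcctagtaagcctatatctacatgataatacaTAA
Gm10925: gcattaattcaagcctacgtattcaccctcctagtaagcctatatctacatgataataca
Single bases differed in the other 2 pairs of the annotated sequences. Which bases the B6NCrl libraries carry cannot be read from the deposited values. In the first 60 bases of mt-Nd3 (chrM:9459-9518, plus strand) and Gm28438 (chr1:24613060-24613119, minus strand) there is 1 difference, T3C, in capitals, counted from the 5′ end of the mitochondrial gene:
mt-Nd3: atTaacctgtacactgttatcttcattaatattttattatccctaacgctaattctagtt
Gm28438: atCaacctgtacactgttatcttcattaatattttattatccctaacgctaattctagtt
Gm29216 begins inside mt-Co1 and carries 6 differences, T1056A, C1057T, A1059G, A1060G, C1062A and A1066T, all in its first bases (mt-Co1 at chrM:6381-6440, plus strand, and Gm29216 at chr1:24616138-24616197, minus strand):
mt-Co1: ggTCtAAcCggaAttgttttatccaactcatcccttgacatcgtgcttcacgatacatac
Gm29216: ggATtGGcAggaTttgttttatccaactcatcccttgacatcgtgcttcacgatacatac

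The deposited tables placed many reads on these copies. Of all expected counts of the 7 pairs, the copies took 43.8% for replicate 2 (43.7 to 44.0, exact 95% interval), against 44.5% for replicate 1 (44.3 to 44.6). For 4 of the 7 pairs the copy had a higher mean TPM than its mitochondrial gene, and by the deposited posterior mean TPM for 3. For 5 of the 7 pairs the counts of gene and copy added up to whole numbers in both libraries (within 0.015 counts).

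Most counts of the mt-Co3 pair lay on the copy. The mitochondrial gene received 19249 counts in replicate 2 and 19892 counts in replicate 1. Gm28437 received 116002 counts in replicate 2 and 114404 counts in replicate 1, or 85.8% and 85.2% of the pair, which gave it 7576 TPM in replicate 2, against 7499.97 TPM in replicate 1 and rank 3 among all mouse genes, against rank 82 for mt-Co3. The deposited posterior SD of each of the 2 genes was 33479.8 counts in replicate 2 and 31872 counts in replicate 1, more than the whole count of mt-Co3. The deposited posterior means divided the pair differently, with 63.3% on Gm28437 in replicate 2 and 63.8% in replicate 1, and put mt-Co3 at 3159 TPM in replicate 2, against 3104 TPM in replicate 1. The summed count was 135251 in replicate 2 and 134296 in replicate 1 by either estimate.

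The small complex I genes mt-Nd3 and mt-Nd4l also stood below their copies. For mt-Nd3 the tables gave 1298 counts in replicate 2 and 1357 in replicate 1, and for Gm28438 4567 and 5103, which is 77.9% of the pair in replicate 2 and 79.0% in replicate 1. For mt-Nd4l they gave 412 counts in replicate 2 and 494 in replicate 1, and for Gm10222 2726 counts in each, which is 86.9% of the pair in replicate 2 and 84.7% in replicate 1. The posterior SDs of these 2 pairs ran from 195 to 276 counts. The division is thus less certain for mt-Nd4l, where the SD in replicate 2 was 276 on 412 counts. Whether the T3C difference holds in these libraries and bears on the division of the mt-Nd3 pair was not tested.

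Gm28661 took 55.0% of its pair with mt-Co2 in replicate 2 and 51.8% in replicate 1, with posterior SDs of 7948 and 6743 counts. The posterior means turned this order, with 42.7% on Gm28661 in replicate 2 and 42.6% in replicate 1. Gm10925 took 16.4% of its pair with mt-Atp6 in replicate 2 and 20.1% in replicate 1, with posterior SDs of 12975 and 13388 counts. For Gm10925 that SD was close to the count itself, 14527 in replicate 2 and 18001 in replicate 1. Its level was 1121 TPM in replicate 2, against 1394 TPM in replicate 1, and the deposited bounds of its posterior TPM ran from 328 to 3051 in replicate 2 and from 127 to 3068 in replicate 1.

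The pairs with a partial copy behaved differently from each other. Gm29216, which shares the last part of mt-Co1, took 19.6% of the pair in both libraries with 21534 counts in replicate 2 and 19723 in replicate 1, and posterior SDs of only 151 and 142 counts. Gm28439, which shares the first part of mt-Nd4, had 7.11 counts in replicate 2 and 0 in replicate 1, against 32285 and 32779 counts on mt-Nd4. The chromosome 2 block had low values in these tables. Gm13340, Gm13341 and Gm13339, which share 80, 88 and 30 stretches with mt-Co1, mt-Co2 and mt-Nd2, had between 0.15 and 1.69 TPM in the 2 libraries. mt-Nd2, whose only such partner is Gm13339, had a posterior SD of 1.09 counts in replicate 2 and 1.05 in replicate 1.

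**Figure D2:**
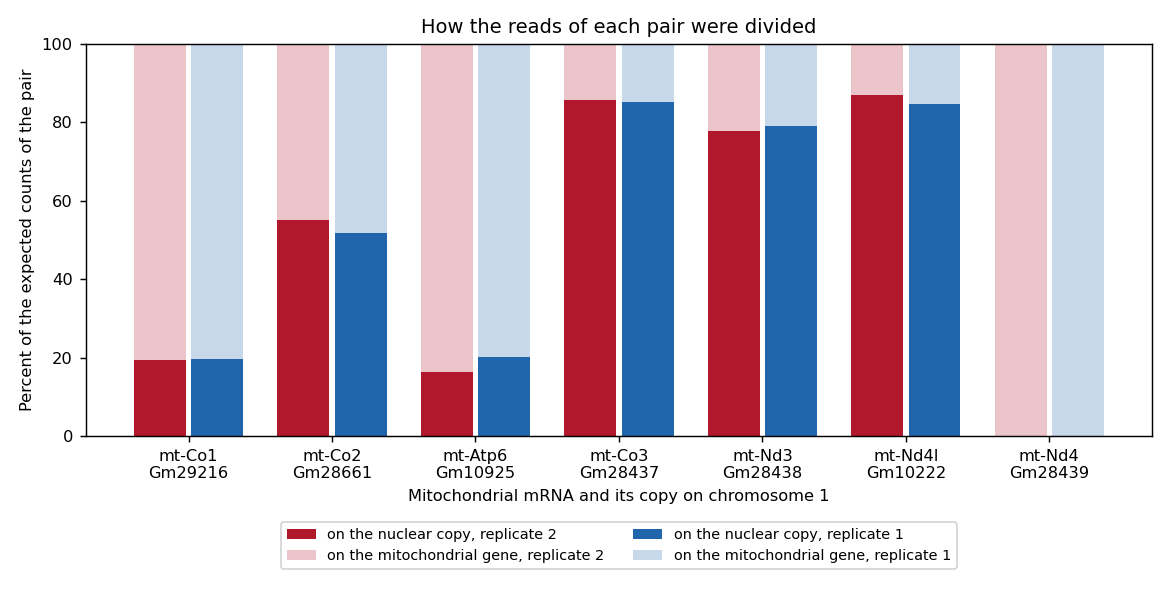
Percent of the expected counts of each pair placed on the chromosome 1 copy (dark) and on the mitochondrial gene (pale), with replicate 2 in red and replicate 1 in blue. The copies of mt-Co3, mt-Nd3 and mt-Nd4l hold 77.9% to 86.9% of their pairs, and the copy of mt-Nd4 at most 0.0217%.

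**Figure D3:**
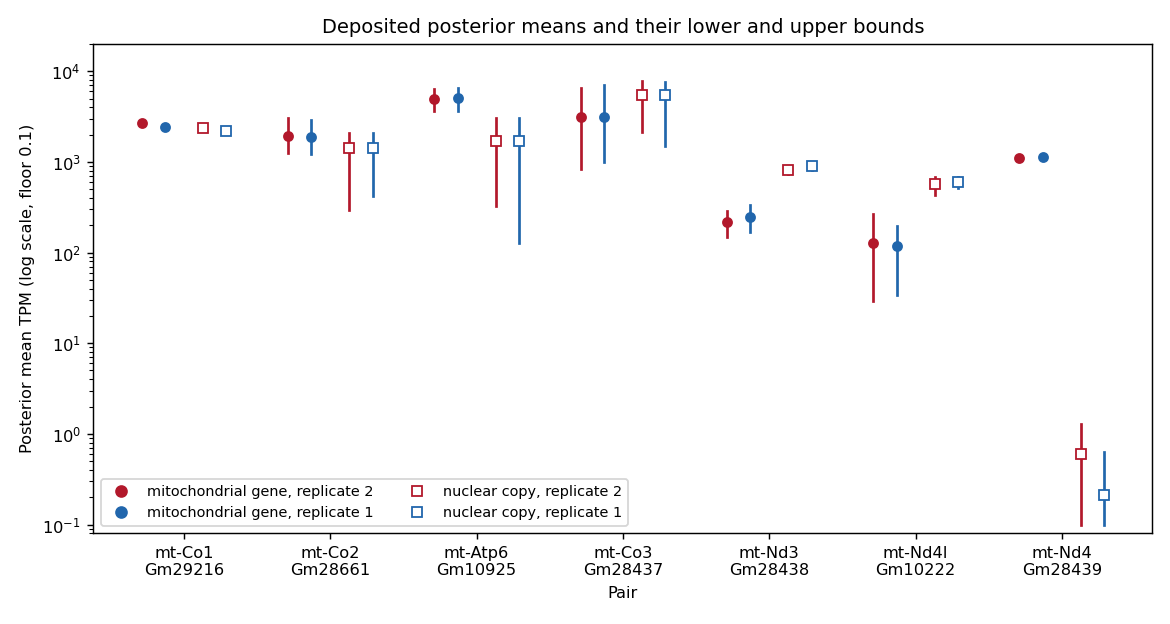
Deposited posterior mean TPM (log scale, values under 0.1 drawn at 0.1) with the deposited lower and upper bounds as bars, for each mitochondrial gene (filled circles) and its chromosome 1 copy (open squares), replicate 2 in red and replicate 1 in blue. The bars of mt-Co3 run from 825 to 6466.5 TPM in replicate 2 and from 996 to 7093 TPM in replicate 1 and overlap those of Gm28437.

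Where reads came from, the mitochondrial genome or chromosome 1, was not tested, and identical stretches cannot be told apart in these tables. As a second reading, the counts of each copy were added to its mitochondrial gene and divided by the gene's effective length. mt-Co3 then stood at 8819.96 TPM in replicate 2, against 8791 TPM in replicate 1, a mean of 8806 ± 20.3 TPM (SD, n = 2) or 6.89 times its deposited mean, and moved from rank 7 to rank 1 of the 13 mRNAs. mt-Nd4l stood at 708 TPM in replicate 2, against 729 TPM in replicate 1, 7.02 times its deposited mean and nearer to its partner mt-Nd4 at 1128 and 1149 TPM. mt-Nd3 stood at 1052 TPM in replicate 2, against 1163 TPM in replicate 1, which is 4.64 times its deposited mean, and mt-Co2 at 3435 and 3395 TPM, which is 2.15 times. mt-Atp6 and mt-Co1 changed by 1.22 and 1.24 times. The means of mt-Co1 (3259 TPM) and mt-Co2 (3415 TPM), like that of mt-Co3, thereby moved from below to above that of mt-Cytb (2833 TPM).

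With the copies added, the 3 plus-strand genes that lie side by side, mt-Atp8, mt-Atp6 and mt-Co3, were the 3 highest mRNAs, and mt-Nd5, mt-Nd6 and mt-Nd2 the 3 lowest. The span from the highest to the lowest mRNA was 22.4-fold in replicate 2 and 21.3-fold in replicate 1. The median mRNA level was 2603 TPM in replicate 2, against 2595 TPM in replicate 1, against 1255 and 1302 TPM without the copies.

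No measured mitochondrial gene differed between the libraries by as much as 2-fold. Log2 ratios divide replicate 2 by replicate 1 after TMM scaling, a scaling that sets the typical gene to no change, and they compare these 2 libraries and no condition. By an exact two-sided binomial test with Benjamini-Hochberg adjustment over 14870 genes, 0 of the 15 measured members passed both an adjusted p below 0.05 and a 2-fold difference, where 1.10% of all genes did. At an adjusted p under 0.05 and any size, 12 of the 15 were lower in replicate 2 and 1 was higher, where 11.3% of all genes were lower and 10.9% higher, although scaling by the spike-in sum turned 14 of the 15 signs positive. The test counts reads only, so genes with many counts pass at small differences, as mt-Rnr1 did at a log2 ratio of -0.03. The shares of all genes cover every count level, and shares among genes with similar counts were not worked out. In edgeR's exact test 0 of 15 passed the adjusted p and 0 reached an unadjusted p under 0.05, the smallest being 0.14, but its spread was estimated from the difference between these same 2 libraries, so these p-values say nothing about how alike the libraries were. In a tissue sample, fewer mitochondria-rich cells and less mitochondrial RNA per cell cannot be told apart.

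Some members shared no stretch with another annotated transcript, although sequence outside the annotated transcripts was not searched. Among these members, mt-Rnr2 differed most, with 109107 counts in replicate 2 and 118779 in replicate 1. Its log2 ratio was -0.19 (95% counting interval -0.20 to -0.17, exact binomial adjusted p = 1.53e-202). mt-Atp8 followed with 10380 counts in replicate 2 and 11251 in replicate 1 (log2 ratio -0.18, interval -0.22 to -0.14), and mt-Nd6 with 4096 and 4419 counts (-0.17, interval -0.23 to -0.11). mt-Rnr1 was nearly level at 25683 counts in replicate 2 and 25176 in replicate 1 (-0.03, interval -0.06 to -0.01). After TMM scaling the single higher member was mt-Co1, with 88442.5 counts in replicate 2 and 80934 in replicate 1, a log2 ratio of 0.07 (0.05 to 0.08). In deposited TPM, which is scaled over all entries with the spike-ins included, mt-Rnr1, mt-Nd1, mt-Atp6 and mt-Cytb were also higher in replicate 2.

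The largest ratio among all members, that of mt-Nd4l at -0.32 (-0.52 to -0.13), was within the uncertainty of its division. Of the 13 members that passed the adjusted p, 3 (mt-Co2, mt-Co3 and mt-Nd4l) differed between the libraries by less than 2 combined posterior SDs. With each copy added to its mitochondrial gene, mt-Nd4l had a log2 ratio of -0.10 (-0.17 to -0.03), mt-Co3 -0.05 (-0.06 to -0.04) and mt-Nd3 -0.20 (-0.25 to -0.15). At an adjusted p under 0.05, 14 of the 15 members were then lower in replicate 2 and 1 higher. Without the copies added, 11.3% of all genes tested were lower and 10.9% higher, and these shares were not worked out again. Genes with many counts pass at small differences, as mt-Co2 with its copy did at -0.04. The median log2 ratio of the 15 members was -0.11, and that of all genes tested was -0.002. With the spike-in sum, which shifts every gene by the same amount, the medians were 0.23 and 0.34. The 14 heart muscle genes given above were also lower in replicate 2, and their part in these ratios was not tested. The libraries also differed in the sex markers, with Xist at 70.1 TPM in replicate 2, against 0.07 TPM in replicate 1. The 4 Y-linked genes summed to 0.05 TPM in replicate 2, against 113 TPM in replicate 1. A difference by sex therefore cannot be told apart from any other difference between these libraries.

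**Figure D4:**
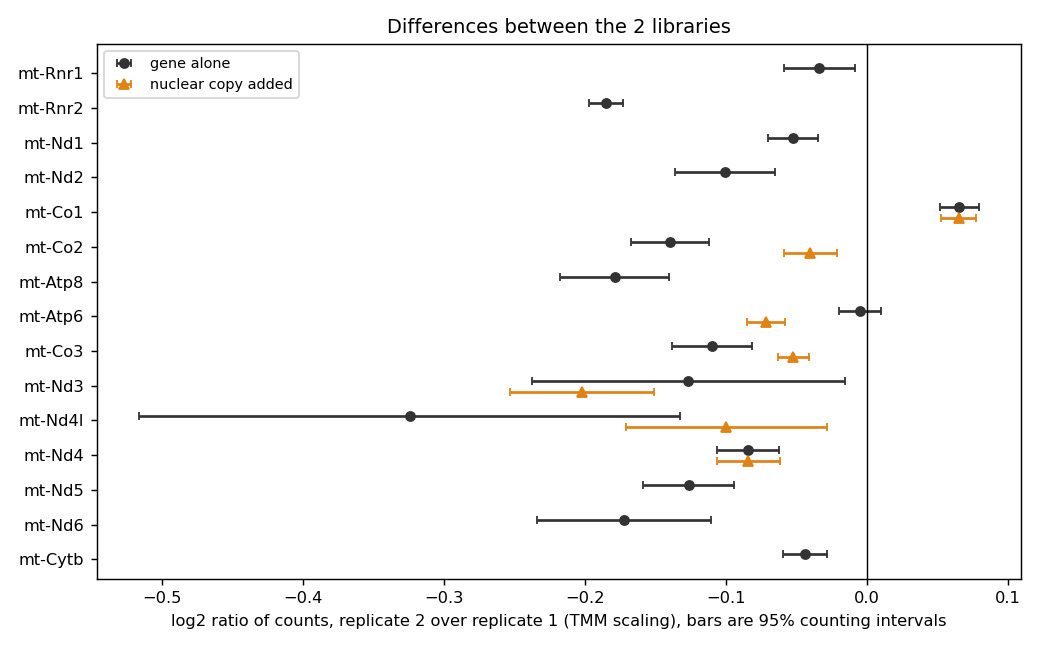
Log2 ratio of counts, replicate 2 over replicate 1, for each of the 15 measured genes alone (black circles) and, for the 7 with a chromosome 1 copy, with the copy added (orange triangles), where bars are 95% counting intervals that leave out the uncertainty of dividing reads. All points lie between -0.32 and 0.07, with mt-Co1 on the right of zero after TMM scaling.

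The mitochondrial mRNAs stood above the examined nuclear genes of the same complexes in most cases. These nuclear genes are a chosen list that does not hold every nuclear subunit. Set beside 27 nuclear subunit genes, whose median was 407 TPM and which all passed 1 TPM in each library, all 3 mitochondrial mRNAs of complex IV, both of complex V and the 1 of complex III exceeded the highest listed nuclear gene of their complex. In complex IV the nuclear median was 672 TPM, led by Cox6b1 at 879 ± 18.6 TPM and Cox4i1 at 756 ± 6.82 TPM. In complex V it was 587 TPM, led by Atp5b, the catalytic beta subunit, at 1787 ± 8.41 TPM and Atp5a1, the alpha subunit, at 778 ± 20.9 TPM. In complex I, 5 of the 7 mitochondrial mRNAs exceeded the highest of the 8 nuclear genes, and all 7 did with the copies added. The 8 listed nuclear complex I genes ran from Ndufs1 at 106 TPM and Ndufa9 at 149.7 TPM to Ndufv2 at 259 TPM. Between the libraries 0 of the 27 were called at 2-fold, and after TMM scaling 12 were lower in replicate 2 and 1 was higher at an adjusted p under 0.05 (median log2 ratio -0.05), beside 1.10%, 11.3% and 10.9% of all genes tested. Here too, shares among genes with similar counts were not worked out.

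**Figure D5:**
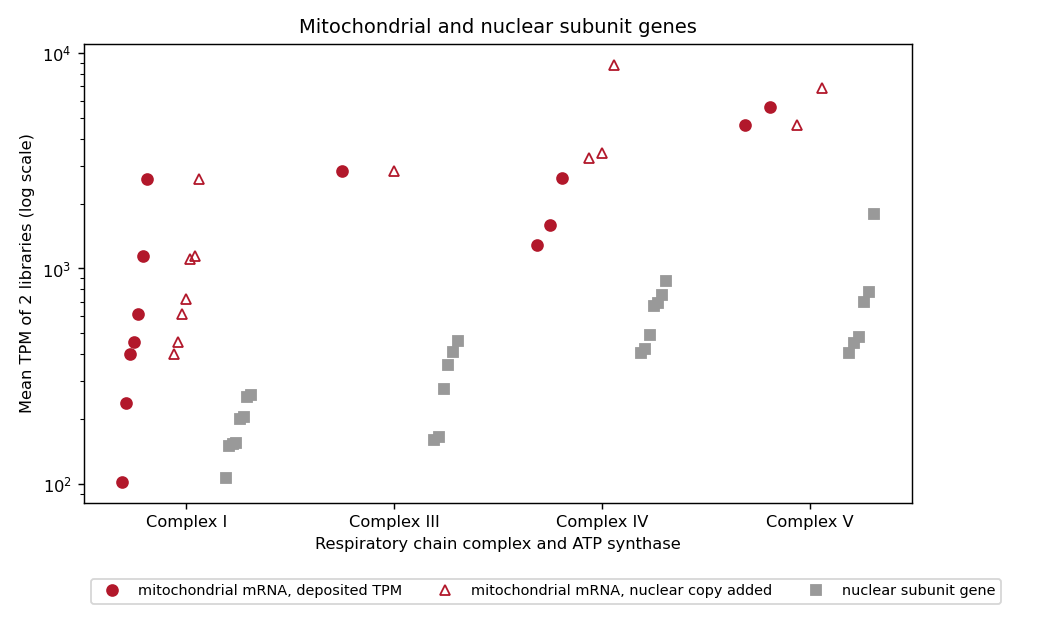
Mean TPM of the 2 libraries (log scale) for mitochondrial mRNAs as deposited (filled circles) and with the chromosome 1 copy added (open triangles) and for nuclear subunit genes (grey squares), by complex. The mitochondrial mRNAs lie above the nuclear genes shown in complexes III, IV and V, and in complex I mt-Nd3 and mt-Nd4l exceed every nuclear gene shown only with the copy added.

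The 37 nuclear genes of mitochondrial gene expression that were examined all passed 1 TPM in each library and had a median of 26.9 TPM. The highest were Slirp, a partner of the mRNA-stabilising protein encoded by Lrpprc, at 235 ± 7.21 TPM, Hsd17b10, a subunit of the enzyme that cuts tRNA 5′ ends, at 176 ± 5.61 TPM, the ribosomal protein gene Mrpl12 at 122 ± 8.96 TPM and the DNA-binding protein gene Ssbp1 at 109 ± 1.39 TPM (SD, n = 2). The lowest were the terminator factor genes Mterf1a at 5.90 ± 0.453 TPM and Mterf1b at 2.05 ± 0.544 TPM, close paralogs whose separate levels are uncertain. None of the 37 was called at 2-fold, while after TMM scaling 3 were higher and 4 lower in replicate 2 at an adjusted p under 0.05, which is near the 10.9% and 11.3% of all genes tested and no result about these genes. Polrmt, the mitochondrial RNA polymerase gene, had a level of 37.3 TPM in replicate 2, against 35.5 TPM in replicate 1. Tfam, which packages and helps transcribe mitochondrial DNA, had 56.5 TPM in replicate 2, against 55.3 TPM in replicate 1.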

How the data were processed

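Per the labels, RNA from lung (10.0 ng, size minimum 200 nt, spike-ins added) was sequenced. The deposited gene tables hold expected counts and TPM made by the authors from transcriptome alignments to mm10 with GENCODE M4, per the deposited read-me files. The sources used here name no aligner or quantifier. The deposited posterior SDs of the count, treated as scores, measure how surely reads were divided. The bounds of the posterior TPM hold more than that, as they have width where no read was divided. For mt-Rnr1 in replicate 2, with a posterior SD of 0, they ran from 1290 to 1322 TPM, below its deposited 1340.3 TPM.

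Names, coordinates (1-based) and sequences were taken by identifier from the GENCODE M21 annotation (GRCm38, which is mm10) (42462 of 43346 genes matched). Gene models may differ between releases. Expected counts were rounded. TMM scaling and an exact test came from edgeR 4.0.16, other size factors from DESeq2 1.42.0 (R 4.3.3), over 14870 genes with mean TPM of 1 or more. The binomial test was exact and two-sided (the smaller tail doubled), with 0.5 added to counts for ratios and calls at an adjusted p under 0.05 and 2-fold. It was tried on simulated counts that had counting error only and no division of reads, so the trial says nothing about further spread. The p-values of the binomial test count reads as independent and ignore how reads were divided. They compare these 2 libraries only, since the labels do not settle which animals went into each. Spike-ins and 26248 entries naming no gene (0.000138% of counts in replicate 2, 0.000149% in replicate 1) were left out of tests. Stretches of 100 nt were compared with all M21 transcripts on both strands. All measured members and copies were named, and of each nuclear list the 4 highest, the 2 lowest and every called gene; Sftpc, Ndufv2, Polrmt and Tfam were added after their values were seen. Members and lists were chosen with earlier results of these data known. Alternatives were other scalings, no filter, added copies, posterior means and each replicate left out.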

Additional observations from a re-analysis of the deposited data

How the results depend on the processing

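The mitochondrial share of mouse gene counts was 1.63%, ran from 1.60% to 1.67% with 1 replicate left out, and became 2.20% with the chromosome 1 copies added and 1.56% with all features as the denominator. The copies held 44.2% of the counts of the 7 pairs, 43.8% to 44.5% with 1 replicate left out, and 37.4% by posterior mean counts. The count of mitochondrial members called at 2-fold was 0 under every scaling, filter, test and added copy tried, and 13 by adjusted p alone, a setting chosen after seeing the data. With DESeq2 size factors or summed mouse gene counts 12 members passed the adjusted p, and with the spike-in sum 14. Of all genes tested, 22.1% passed with TMM scaling. That share was not worked out for the other scalings, so these counts are no result about the members. Over all genes, 164 were called, 165 with DESeq2 size factors or summed mouse gene counts, 285 with the spike-in sum (70.2% of them higher in replicate 2, against 31.1%), 477 with no filter, 106 with edgeR's exact test and 3293 by adjusted p alone. With the spike-in sum the log2 ratios turned positive for mt-Rnr1 (0.31), mt-Rnr2 (0.16), mt-Nd1 (0.29), mt-Nd2 (0.24), mt-Co2 (0.20), mt-Atp8 (0.16), mt-Atp6 (0.34), mt-Co3 (0.23), mt-Nd3 (0.22), mt-Nd4l (0.018), mt-Nd4 (0.26), mt-Nd5 (0.22), mt-Nd6 (0.17) and mt-Cytb (0.30), and with summed mouse gene counts for mt-Atp6 (0.0035). The spike-ins took 3.96% of counts in replicate 2 and 4.94% in replicate 1, and this setting's construction moves all genes together. No paired analysis was possible because there is 1 group. With 1 replicate left out no ratio can be given. Depth does not limit these genes, of which mt-Nd4l had the fewest counts (412 in replicate 2 and 494 in replicate 1). Identical sequence limits some of them, most clearly mt-Co2, mt-Atp6, mt-Co3, mt-Nd3 and mt-Nd4l, whose posterior SDs were large beside their counts.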

Other observations

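On the scale that divides by the whole length of a gene and with the chromosome 1 copies added, both chosen after seeing the data, the order of the mRNAs began with mt-Co3 at 8610.0 TPM, mt-Atp6 at 6550.4 TPM and mt-Co1 at 3414 TPM. mt-Atp8 took rank 6 at 2656 TPM, so that its place beside mt-Atp6 and mt-Co3 among the 3 highest depends on the effective length. mt-Nd6, the mRNA of the minus strand, was the lowest at 411 TPM on that scale, just under mt-Nd5 at 426 TPM.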
